A study of Mus musculus with 14 samples.

Results

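The 10 genes described here encode core parts of the desmosome, the cell junction that ties keratin filaments of neighbouring epidermal cells together, and were picked by name: the desmogleins Dsg2 and Dsg3, the desmocollins Dsc2 and Dsc3, plakoglobin (Jup), the plakophilins Pkp1, Pkp2 and Pkp3, desmoplakin (Dsp) and Perp. All 10 have a row among the 54332 of the time-course table, which gives TPM, a transcript level that is corrected for length and scaled to the same total in every library. RNA came from epidermal stem cells (EpdSCs) of K14rtTA; TRE-myc-Sox9 mice of the CD1 strain, labelled male, in which a Krt14 promoter drives a doxycycline (DOX)-dependent activator that switches on MYC-tagged SOX9. The 5 groups, each with 2 biological replicates, were D0, taken at postnatal day 21, when induction begins, and W1, W2, W6 and W12 of DOX, with ages of 28, 35 and 63 days for the first 3 of these. W12 cells came from newborn skin of the same genotype grafted onto immunocompromised Nude female hosts, healed and then induced, so that grafting and 12 weeks of SOX9 cannot be told apart, and age rose with induction time at the earlier timepoints. D0 mice carried both transgenes too, and no DOX-treated mice without TRE-myc-Sox9 were analysed here. All cells were sorted as negative for CD31, CD45, CD117, CD140a and CD34 and high for CD49f and Ly6A, which takes basal interfollicular keratinocytes and removes endothelial, immune and mesenchymal cells and melanocytes. A further 4 libraries of embryonic hair placode cells were not analysed here.

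In a desmosome, desmogleins and desmocollins are cadherins that span the membrane and bind their counterparts on the next cell. Plakoglobin and the plakophilins, which are armadillo-repeat proteins, hold the cadherin tails on the inside and link them to desmoplakin, a plakin that grips the keratin filaments. Perp is a small membrane protein that desmosomes of stratified epithelia need. In mouse epidermis, Dsg3, Dsc3 and Dsg2 are known as cadherins of the lower layers, Dsg1 and Dsc1 as those of the upper layers, and Dsc2 and Dsg2 are also the desmosomal cadherins of simple epithelia and the heart, where Pkp2 is the main plakophilin.

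The libraries differed in ways that touch the results. MYC-SOX9 ranged from 606 to 3414 TPM in the 8 induced libraries, against 89.6 and 45.6 TPM at D0. D0 replicate 2 went against its male label, with Xist at 4.61 TPM and Ddx3y at 0.0278 TPM, whereas D0 replicate 1 had Ddx3y at 32.1 TPM. The W12 libraries held both Xist (5.51 and 3.50 TPM) and Ddx3y (10.97 and 12.9 TPM). The basal keratinocyte markers were present in all groups, 7 of 7 at 1 TPM or more, with a summed level of 57283 and 59272 TPM at D0, 39007 to 44270 TPM at W1 and W2, 35189 and 35925 TPM at W6, and 45183 and 46886 TPM at W12, most of it Krt14 at W12. Of these 7 genes 5 were called lower at W6 against D0, where 14.1% of all genes tested were. Fewer were called lower with either W6 library left out, and their median change was −0.84 without W6 replicate 1 and −1.21 without W6 replicate 2. At W12 against D0, 3 were lower and 2 higher, against 25.1% and 17.9%, and the higher calls were lost without W12 replicate 2. Krt15 had a mean of 11584 TPM at D0, 890 TPM at W6 and 282 TPM at W12, Trp63 of 473 and 122 TPM at D0 and W12, and Krt5 of 14691 and 7588 TPM. The suprabasal markers summed to 5785 and 1912 TPM at D0, 3772 to 7349 TPM at W1 and W2, 11938 and 12516 TPM at W6, and 11942 to 13558 TPM at W12, with Krtdap the main contributor at every induced timepoint. Of these 7 genes 4 were called higher and 0 lower at W6 against D0, against 18.3% and 14.1% of all genes tested. At W12 against D0, 3 were higher and 1 lower, against 17.9% and 25.1%. Endothelial markers with a timepoint mean of 1 TPM or more were 0 of 4 before W12 and 4 of 4 there, with Pecam1 at 1.14 TPM in W6 replicate 2, and with sums of at most 1.42 TPM before and 51.8 and 112 TPM at W12, and Cdh5 at 0 in all libraries up to W2. Of the 6 immune markers, 2 had a mean of 1 TPM or more at W12, as at D0, W1 and W2 (at W12 a summed level of 103.5 and 127 TPM, nearly all Cd74, against 2.92 to 27.99 TPM in the earlier libraries), and Ptprc, the gene of CD45, stayed at or below 0.327 TPM. Fibroblast markers summed to at most 4.06 TPM before W6, 1.68 and 52.2 TPM in the W6 libraries and 13.7 and 28.1 TPM at W12, with Dcn the main contributor in W6 replicate 2 and at W12. Melanocyte markers summed to 1.27 to 6.30 TPM up to W2, 4.57 and 11.8 TPM at W6 and 12.8 and 11.2 TPM at W12, and Merkel markers to at most 1.98 TPM. Hair follicle stem cell markers summed to 31.2 and 46.5 TPM at D0, 80.0 to 95.4 TPM at W1 and W2, 65.9 and 59.3 TPM at W6, and 37.5 and 56.7 TPM at W12. Of these 5 genes 1 was called higher and 1 lower at W12 against D0, against 17.9% and 25.1% of all genes, with a median change of −0.48. Cd34, 1 of the 5, whose protein was gated out, was at or below 0.383 TPM up to W2, at 2.66 and 5.04 TPM at W6 and at 16.5 and 32.0 TPM at W12. Cycling genes summed to 602 and 341 TPM at D0, 253 to 398 TPM at W1 and W2, 709 and 811 TPM at W6, and 648 and 641 TPM at W12. Immediate-early and stress genes summed to 34335 and 56248 TPM at D0 and to 6350 to 14642 TPM later. The part of these shifts in the results below was not tested, and in RNA from pooled cells fewer cells of a type and less RNA per cell cannot be told apart.

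At D0 the members spanned a wide range of levels, from Perp, 35th of all genes by mean TPM, and Jup, 137th, down to Pkp2, 17620th. The order by mean TPM was Perp, Jup, Pkp3, Dsc3, Pkp1, Dsp, Dsg3, Dsg2, Dsc2 and Pkp2, and among neighbours in this order the libraries overlapped for Dsc3 with Pkp1 and for Dsp with Dsg3. At W12 the order was Perp, Jup, Dsc3, Pkp3, Pkp1, Dsg3, Dsp, Dsc2, Dsg2 and Pkp2, with no overlap between neighbours. Dsc2 thus stood below Dsg2 in every library up to W6 and above it in both W12 libraries.

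**Figure D1:**
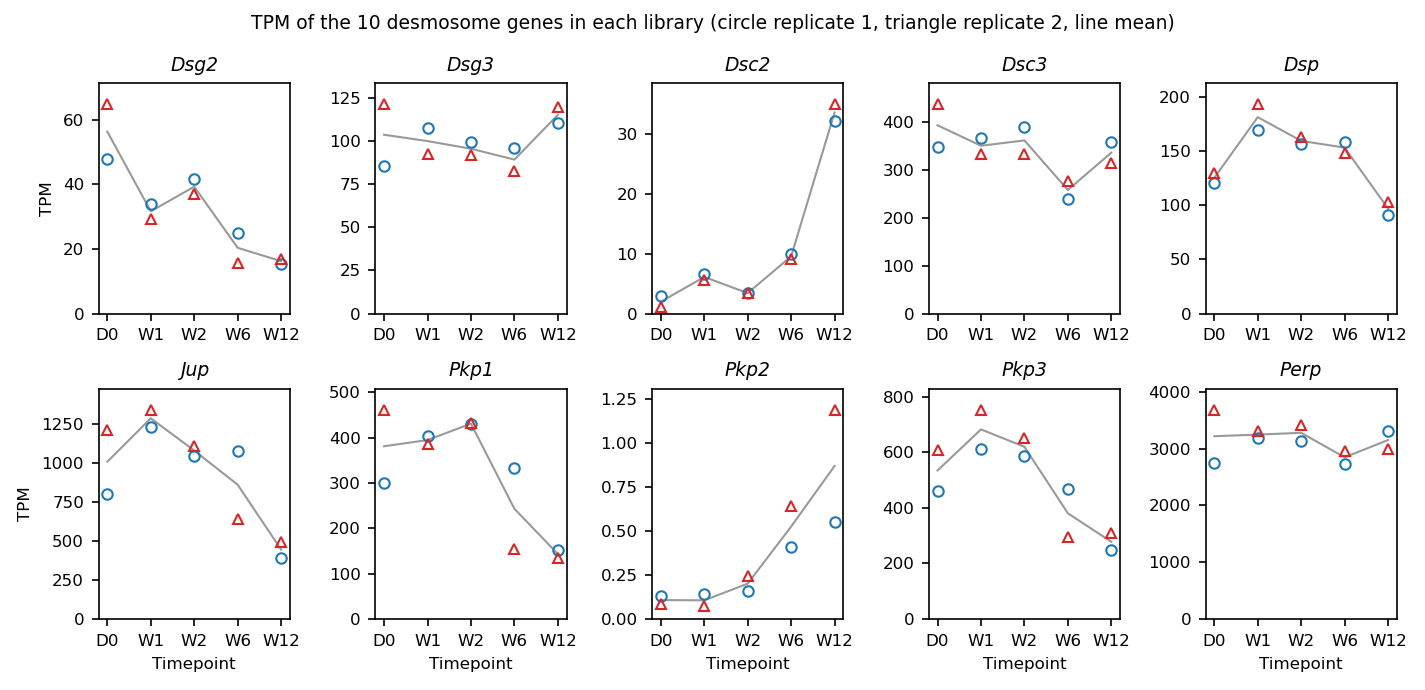
TPM of each desmosome gene (vertical axes, linear and from 0, a scale of its own for each gene) at D0, W1, W2, W6 and W12. Circles are replicate 1, triangles replicate 2 and the line joins the means of 2 libraries. Dsc2 reaches 32.1 and 35.01 TPM at W12, Dsg2 falls from 47.7 and 64.8 to 15.46 and 16.9 TPM, and Perp stays between 2736 and 3689.6 TPM throughout.

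Changes were tested with limma on log2(TPM + 1) over the 13110 genes whose mean TPM reached 1, with P values adjusted by Benjamini-Hochberg over all of them. Of the 10 members 9 passed this filter, and Pkp2, the exception, was not tested. A member was called changed at an adjusted P under 0.05. With W12 against D0, 5 of the 9 differed, 1 higher (Dsc2) and 4 lower (Dsg2, Jup, Pkp1 and Pkp3), where 43% of all genes tested were called, 17.9% higher and 25.1% lower. The median change of the 9 was −0.37 on the log2 scale, against −0.08 over all genes tested. The endothelial, immune and suprabasal sums were higher at W12 too and the stress sum lower, and their part in these calls was not tested. With W6 against D0, 3 of the 9 differed (Dsc2 higher, Dsg2 and Dsc3 lower), against 32.4% of all genes (18.3% higher and 14.1% lower), and their median was −0.24 against 0.08. With W1 against D0, 2 of the 9 were higher (Dsc2 and Dsp) and none lower, against 9.89% of all genes (5.79% higher and 4.1% lower), and the medians were 0.08 and 0.09. With W2 against D0 limma called 0 of the 9, against 15.7% of all genes (9.06% higher and 6.64% lower), and 1 member, Dsp, had an unadjusted p under 0.05. These 4 comparisons share the D0 libraries, on which the members' medians depended. With only D0 replicate 1 kept, the medians in the order W1, W2, W6, W12 were 0.39, 0.25, 0.05 and −0.32, and with only D0 replicate 2 kept they were −0.18, −0.17, −0.54 and −0.42. Those of all genes lay between 0.03 and 0.12 at W1, W2 and W6 in these fits, and were −0.13 and −0.04 at W12. Without D0 replicate 2, the library that went against its label, the members called were 1 at W1 (Dsc2), 0 at W2, 2 at W6 (Dsg2 and Dsc2) and 2 at W12 (Dsg2 and Dsc2), where the calls over all genes went down too, to 7.86%, 10.9%, 18% and 28.5%. Without W6 replicate 2, the library with high Dcn, Dsc2, Dsg2 and Dsc3 kept their W6 calls, and the members' median was −0.16, against 0.04 over all genes. Without W6 replicate 1 the set was another. Dsc3 lost its W6 call, Pkp1 had a difference of −1.27, and the members' median was −0.49, against 0.12 over all genes. Without W12 replicate 1 the W12 calls were 3 (Dsg2, Dsc2 and Pkp1), against 25.6% of all genes, and without D0 replicate 1 there was 1 call at W2 (Dsc2), against 19.6%. The W1 count was 0 without W1 replicate 1 or 2 (4.65% and 2.88% of all genes), and 1 (Dsc2) without W2 replicate 1 or 2 or W12 replicate 1 or 2 (6.99% to 7.4%).

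**Figure D2:**
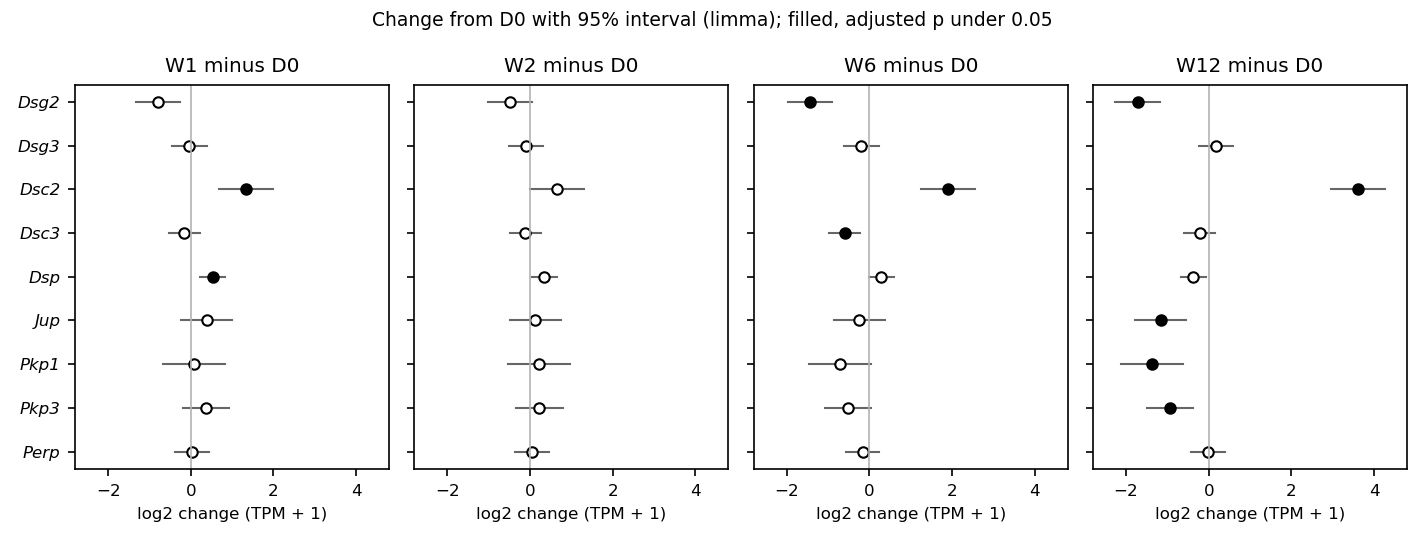
Change of the 9 tested members from D0 at W1, W2, W6 and W12 (horizontal axes, difference in log2(TPM + 1); bars, 95% intervals from limma over 10 libraries). Filled points have an adjusted P under 0.05, and at W12 these are Dsg2, Dsc2, Jup, Pkp1 and Pkp3.

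Dsc2 showed the widest rise of any member. Its TPM was 2.91 and 1.02 at D0, 6.58 and 5.63 at W1, 3.39 and 3.42 at W2, 10.01 and 9.07 at W6, and 32.1 and 35.01 at W12. Every later library lay above both D0 libraries, the W2 libraries lay below those of W1, and the W12 libraries lay far above all others. The level at W12 was 17.1 times that at D0 as a ratio of mean TPM, and the difference on the log2(TPM + 1) scale was 3.62 (SE 0.29, limma adjusted P = 4.97e-05). Against D0 replicate 1 alone this ratio came to 11.5, and against D0 replicate 2 alone to 33.1. Dsc2 was also higher at W1 (1.34, SE 0.29, limma adjusted P = 0.0212) and at W6 (1.91, SE 0.29, limma adjusted P = 0.0019) than at D0. The W1 difference was 0.86 (limma adjusted P = 0.0426) without D0 replicate 2 and did not pass the threshold without W1 replicate 1 or without W1 replicate 2. At W2 the difference from D0 was 0.65 with a 95% interval from −0.0021 to 1.30 and a limma adjusted P of 0.16, a value that became 0.17 with only D0 replicate 1 kept and 1.13 (limma adjusted P = 0.00962) with only D0 replicate 2 kept. Between consecutive timepoints Dsc2 was higher at W6 than at W2 by 1.26 (limma adjusted P = 0.0247) and at W12 than at W6 by 1.71 (limma adjusted P = 0.00554).

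Dsc3, the desmocollin of basal keratinocytes, followed another course. Its TPM was 348 and 437 at D0, 367 and 334 at W1, 389 and 334 at W2, 239 and 277 at W6, and 358 and 314 at W12. Only the W6 libraries lay below all others. The difference at W6 from D0 was −0.60 (SE 0.17, limma adjusted P = 0.0243), and it was −0.44 with a limma adjusted P of 0.11 without D0 replicate 2 and lost its call without W6 replicate 1 too. At W12 the difference from D0 was −0.22, with a 95% interval from −0.60 to 0.16, and it was −0.056 without D0 replicate 2. Dsc3 held 97.8% and 99.1% of the summed TPM of Dsc1, Dsc2 and Dsc3 at D0 and 86.3% and 85.4% at W12. Over the same libraries Dsc2 went from 0.818% and 0.230% to 7.76% and 9.53%, and Dsc1 from 1.41% and 0.670% to 5.95% and 5.07%. Dsc1 took its largest share in W6 replicate 1, 17.6%, where Dsc2 had 3.32%. The summed desmocollin TPM was 356 and 441 at D0 and 414 and 367 at W12, values that overlapped.

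Dsg2 fell. Its TPM was 47.7 and 64.8 at D0, 33.9 and 29.3 at W1, 41.5 and 37.0 at W2, 25.0 and 15.6 at W6, and 15.46 and 16.9 at W12. All later libraries lay below both D0 libraries, and the W6 and W12 libraries lay below those of W1 and W2. The D0 level was 3.47 times that at W12 as a ratio of means, a log2 difference of −1.72 (SE 0.24, limma adjusted P = 0.000767). At W6 the difference was −1.44 (SE 0.24, limma adjusted P = 0.00279). At W1 it was −0.80, with a 95% interval from −1.33 to −0.26 and a limma adjusted P of 0.0692, and at W2 it was −0.49 (limma adjusted P = 0.19). Without D0 replicate 2 the W1 and W2 differences were −0.58 and −0.28. The difference of W6 from W2 was −0.95 (limma adjusted P = 0.032), a call that was lost in 10 of 19 alternatives, the fit without W6 replicate 2 (−0.63) among them.

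Dsg3, a desmoglein of the lower layers, was not called in any comparison. Its TPM was 85.9 and 122 at D0, 108 and 92.7 at W1, 99.3 and 92.0 at W2, 96.0 and 82.7 at W6, and 111 and 119.9 at W12. The D0 libraries themselves covered nearly the whole of this range. The difference of W12 from D0 was 0.17, with a 95% interval from −0.25 to 0.59, which includes 0. As a share of the TPM of the 6 desmogleins listed, Dsg3 went from 29.7% and 31.9% at D0 to 47.4% and 55.1% at W12, while Dsg2 went from 16.5% and 17.0% to 6.62% and 7.77%. Dsg1a made up 46.6% and 45.3% at D0 and 30.0% and 20.3% at W12, and Dsg1b 7.23% and 5.76% at D0 and 15.8% and 16.9% at W12. The summed desmoglein TPM was 289 and 382 at D0 and 233 and 218 at W12. Dsg1a and Dsg1b are near-identical copies whose reads can be assigned to either, so their split is uncertain. Their sum was 156 and 195 TPM at D0, 67.9 and 81.4 TPM at W6, and 107 and 80.8 TPM at W12.

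**Figure D3:**
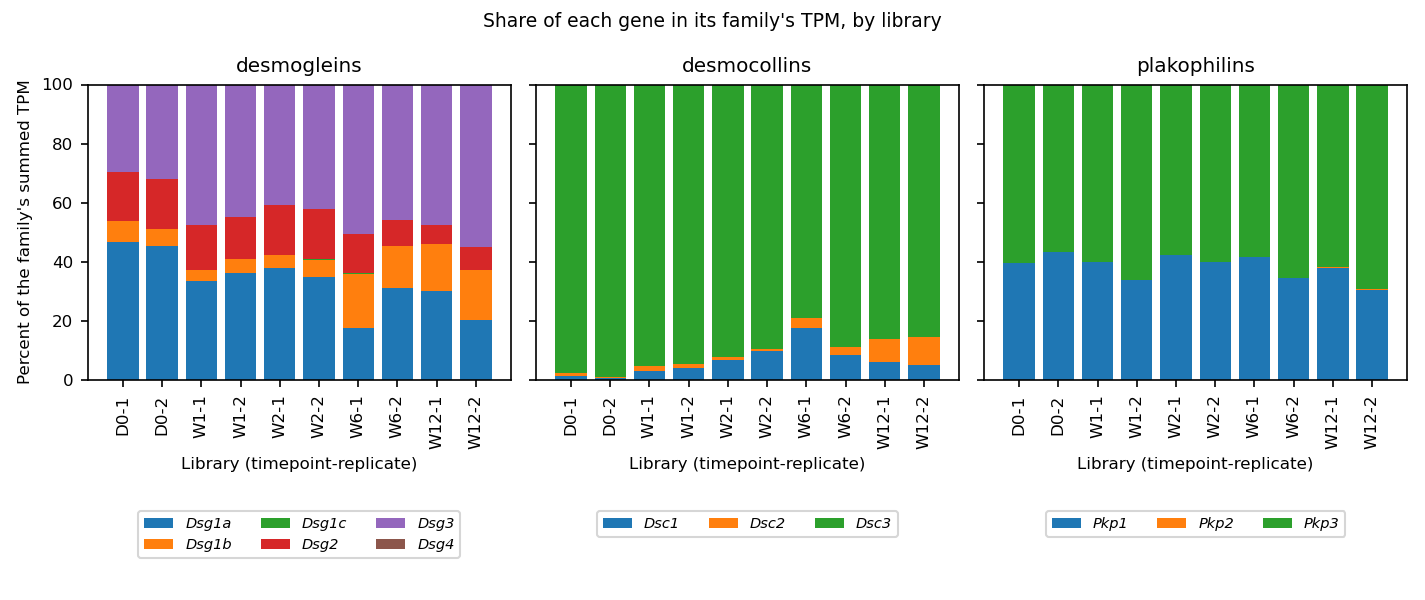
Share of each gene in the summed TPM of its family (vertical axis, percent, from 0) in each of the 10 libraries, labelled by timepoint and replicate, for desmogleins, desmocollins and plakophilins. The Dsg3 block grows from about 30% at D0 (29.7% and 31.9%) to 47.4% and 55.1% at W12, the Dsc2 block reaches 7.76% and 9.53% at W12, and Pkp2, Dsg1c and Dsg4 are too small to see in most libraries.

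Plakoglobin, encoded by Jup, is shared by desmosomes and adherens junctions. Its TPM was 804 and 1212 at D0, 1229 and 1341 at W1, 1047 and 1110.5 at W2, 1077 and 644 at W6, and 394 and 496 at W12. Both W12 libraries lay below all other libraries, the libraries of W6 were far apart, and those of D0 were too. The D0 mean was 2.26 times the W12 mean, a log2 difference of −1.16 (SE 0.27, limma adjusted P = 0.00947). Without D0 replicate 2 it was −0.86 (limma adjusted P = 0.0584), and it also lost its call without W12 replicate 1. At W1, W2 and W6 the difference from D0 was 0.38, 0.13 and −0.24, with no call. With 1 library left out in turn, the W1 difference ran from 0.08 to 0.68. The difference of Jup at W12 from W6 was −0.91 (limma adjusted P = 0.0459), a call that held in 6 of 20 alternatives, and it was −0.54 without W6 replicate 1.

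Pkp1, a plakophilin of stratified epithelia that stabilizes desmosomes, had TPM of 300.3 and 462 at D0, 403 and 386 at W1, 431 and 432 at W2, 333 and 154 at W6, and 152 and 136 at W12. The W12 libraries were the lowest, with W6 replicate 2 close to them and W6 replicate 1 within the range of D0. The D0 mean was 2.65 times that at W12, a log2 difference of −1.37 (SE 0.33, limma adjusted P = 0.0102). Without D0 replicate 2 it was −1.06 (limma adjusted P = 0.0708), and it lost its call without W12 replicate 2 as well. At W6 the difference from D0 was −0.72, with a 95% interval from −1.46 to 0.03. It was −1.27 (limma adjusted P = 0.0108) without W6 replicate 1, −0.16 without W6 replicate 2 and −0.41 without D0 replicate 2.

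Pkp3, the most abundant plakophilin in these cells, had TPM of 459.9 and 609 at D0, 611 and 754 at W1, 588 and 652 at W2, 467 and 294 at W6, and 248 and 308 at W12. The W12 libraries and W6 replicate 2, which lay between them, were below all others. The D0 mean was 1.92 times that at W12, a log2 difference of −0.93 (SE 0.25, limma adjusted P = 0.0153), and −0.73 (limma adjusted P = 0.0899) without D0 replicate 2. This call was also lost without W12 replicate 1, with no filter on low TPM and when length and GC content were corrected for. Pkp2 was listed at very low levels, with TPM of 0.129 and 0.0866 at D0, 0.141 and 0.0726 at W1, 0.158 and 0.245 at W2, 0.408 and 0.644 at W6, and 0.550 and 1.19 at W12. All libraries of W6 and W12 lay above all earlier ones, but Pkp2 had no test, since its mean was under 1 TPM. Pkp3 had 60.5% and 56.8% of plakophilin TPM at D0 and 62.0% and 69.2% at W12, and the total went from 760.3 and 1072 to 400.1 and 445 TPM.

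Desmoplakin, encoded by Dsp, had TPM of 120.4 and 129.7 at D0, 169 and 193 at W1, 156 and 162 at W2, 158 and 148 at W6, and 90.7 and 103 at W12. The replicates were close together at every timepoint, those of W1, W2 and W6 lay above D0, and those of W12 lay below it. At W1 the difference from D0 was 0.53 (SE 0.13, limma adjusted P = 0.0405), but this call held in only 4 of 20 alternatives and was absent without either W1 replicate. At W2 and W6 the differences from D0 were 0.35 and 0.29, with limma adjusted P of 0.114 and 0.127. At W12 the difference was −0.37, with a 95% interval from −0.67 to −0.07 and a limma adjusted P of 0.0515. From W6 to W12 Dsp fell by 0.66 (SE 0.13, limma adjusted P = 0.012), and it lost its call without W12 replicate 1.

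The longest annotated transcript of Dsp, 9592 bases, was the longest among the members, and changes at W6 and W12 were related to transcript length in these libraries. Over 13099 genes, Spearman's rho of transcript length with the log2 change was −0.32 for W12 against D0 and −0.24 for W6 against D0, but −0.08 for W2 and 0.0014 for W1 against D0, given as a description, since genes of a library share its preparation. With length and GC content corrected for, an alternative chosen after seeing the data, Dsp at W12 against D0 changed sign to 0.30 (limma adjusted P = 0.0888), and its fall from W6 to W12 became −0.29 (limma adjusted P = 0.136), while its difference of W6 from D0 became 0.59 (limma adjusted P = 0.00828). With the same correction the W12 differences of Jup and Pkp1 from D0 became −0.59 and −0.78 (limma adjusted P = 0.0292 and 0.0423), that of Pkp3 −0.38 (limma adjusted P = 0.0862), that of Dsg2 −1.42 and that of Dsc2 3.63. Those of Perp, Dsg3 and Dsc3 became −0.45, 0.33 and −0.14, with no call (limma adjusted P = 0.0906, 0.134 and 0.427).

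**Figure D4:**
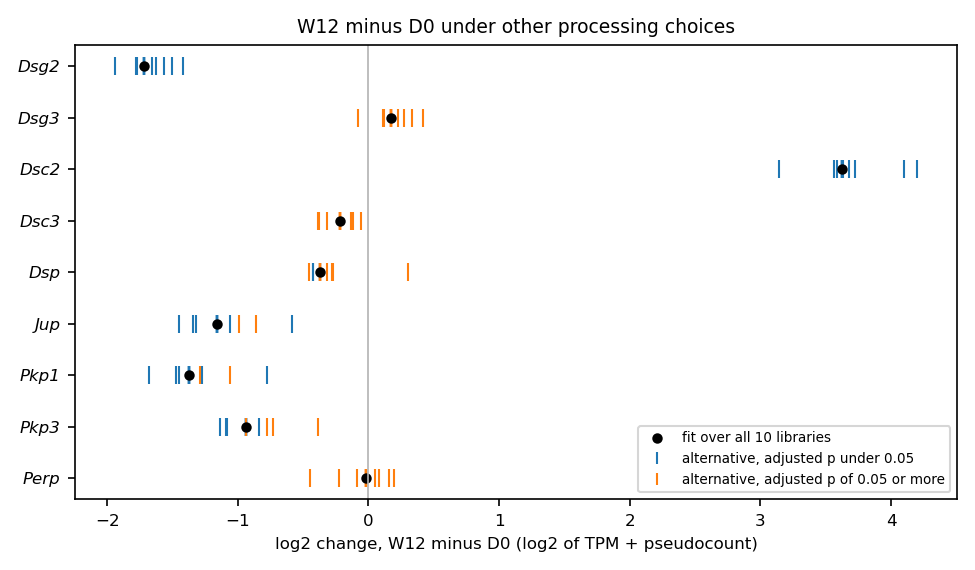
Difference of W12 from D0 for the 9 tested members (horizontal axis, log2 scale) in the fit over all 10 libraries (black points) and in each of 19 alternatives (ticks, blue with an adjusted P under 0.05 and orange otherwise). Dsg2 and Dsc2 pass in all 19, with values from −1.94 to −1.42 and from 3.14 to 4.197, and Jup, Pkp1 and Pkp3 lie below 0 in all 19 with some orange ticks.

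RefSeq promoter sequences (GRCm38.p6) were at hand for 2 of the 10 members, Jup and Dsp. The 250 bases before each start site are shown because both are rich in GC, at 62.0% and 72.4%. Capitals mark GC boxes, GGGCGG or its reverse complement CCGCCC, of which Jup (chr11:100397791-100398040, minus strand) had 2 and Dsp (chr13:38151044-38151293, plus strand) had 4.
Jup: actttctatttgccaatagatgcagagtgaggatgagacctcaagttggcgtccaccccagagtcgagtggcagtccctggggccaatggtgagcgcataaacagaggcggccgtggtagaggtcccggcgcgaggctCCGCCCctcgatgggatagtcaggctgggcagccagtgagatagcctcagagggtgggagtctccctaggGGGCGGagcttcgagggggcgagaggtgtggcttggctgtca
Dsp: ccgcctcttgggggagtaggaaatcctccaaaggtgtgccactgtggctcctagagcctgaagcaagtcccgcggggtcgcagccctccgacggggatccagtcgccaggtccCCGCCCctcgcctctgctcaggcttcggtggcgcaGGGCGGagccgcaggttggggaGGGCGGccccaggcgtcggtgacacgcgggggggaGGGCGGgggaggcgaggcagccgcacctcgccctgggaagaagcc
A GC box was present in 32.7% of 32851 mouse promoters of the same length, searched on both strands. The AP-1 motif TGANTCA, the GATA motif GATAA, the SOX motif ACAAT and the RUNX motif TGTGGT had no match in either sequence, and were present in 6.75%, 22.6%, 27.7% and 14.0% of all promoters. No match says only that these letters are not in this window.

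Perp was the most abundant member and moved least in mean TPM. Its TPM was 2750.2 and 3689.6 at D0, 3190.5 and 3306 at W1, 3134 and 3425 at W2, 2736 and 2961 at W6, and 3304 and 3000.2 at W12. The D0 libraries stood at or near both ends of the whole range. The difference of W12 from D0 was −0.02, with a 95% interval from −0.42 to 0.39, and its sign depended on the scaling of the libraries. With length and GC content corrected for, the differences of Perp from D0 were −0.34 at W6 and −0.45 at W12. Neither was called (limma adjusted P = 0.192 and 0.0906). The highest timepoint mean of Perp was 1.15 times its lowest, against 17.1 times for Dsc2, 3.47 times for Dsg2, 8.17 times for Pkp2, whose timepoint means were all under 1 TPM, 3 times for Pkp1, 2.89 times for Jup, 2.45 times for Pkp3, 1.87 times for Dsp, 1.52 times for Dsc3 and 1.29 times for Dsg3.

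Between W1 and W2, limma called 0 of the 9 members, against 0.114% of all genes tested (15 genes; 0.0458% higher and 0.0686% lower). Dsc2, lower at W2, was the member with an unadjusted p under 0.05. From W2 to W6, 2 of the 9 were called, Dsc2 higher and Dsg2 lower, against 16.3% of all genes (7.99% higher and 8.31% lower). The count was 0 without W2 replicate 1, without W2 replicate 2, without W6 replicate 2 or without W12 replicate 2, 1 (Dsc2) without W1 replicate 1, W1 replicate 2 or W12 replicate 1, and 3 (Dsg2, Pkp1 and Pkp3, all lower) without W6 replicate 1. The share of all genes called was 1.58% to 9.56% in the 7 fits with fewer member calls and 20% without W6 replicate 1. From W6 to W12, 3 of the 9 were called, Dsc2 higher and Jup and Dsp lower, against 20.2% of all genes (6.66% higher and 13.5% lower), and without W12 replicate 1 the count was 1 (Dsc2), against 5.8% of all genes. The median of all genes in this last comparison was −0.16 and moved to −0.01 when libraries were scaled by median ratios, which also moved the higher share of all calls from 33.0% to 55.0%. In W1 against D0 that scaling moved the higher share from 58.6% to 47.4%. The fall of Dsp from W6 to W12 was −0.48 under it and that of Jup −0.74, the latter without a call (limma adjusted P = 0.119).

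The genes lie on 7 chromosomes (GRCm38, GENCODE M21 annotation). Dsc3 (19960930 to 20002351, minus strand), Dsc2 (20030633 to 20059554, minus strand), Dsg3 (20510274 to 20547459, plus strand) and Dsg2 (20558074 to 20604521, plus strand) belong to the desmosomal cadherin cluster of chromosome 18, in which Dsc1, Dsg1c, Dsg1a, Dsg1b and Dsg4 lie between Dsc2 and Dsg3. At W12 against D0, Dsc2 was called higher beside Dsc3, which was not called, and Dsg2 was called lower beside Dsg3, which was not called, and the difference between neighbours was not tested. Pkp1 lies on chromosome 1 (135871395 to 135919207), Pkp3 on chromosome 7 (141078218 to 141090510), Perp on chromosome 10 (18845020 to 18857073), Jup on chromosome 11 (100368958 to 100397763), Dsp on chromosome 13 (38151294 to 38198577) and Pkp2 on chromosome 16 (16213318 to 16272712). Exons of an antisense gene, Gm16090, overlap Dsg2, and those of Gm10129 overlap Dsp, but these were listed at no more than 0.193 and 0.511 TPM.

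Of 10 further desmosome genes listed, 8 passed the filter, and Dsg1c and Dsg4 did not. Dsg1a and Dsg1b are counted here as separate genes, although the split of their reads is uncertain. Their sum was 156 and 195 TPM at D0 and 107 and 80.8 TPM at W12. At W12 against D0, 3 of the 8 were higher (Dsg1b, Dsc1 and Cdsn) and 4 lower (Dsg1a, Evpl, Ppl and Kazn), with Pkp4 not called, against 17.9% higher and 25.1% lower over all genes tested, and the median was −0.79, against −0.08. With any 1 of the D0 and W12 libraries left out, 1 or 2 were higher and 3 or 4 lower. Dsc1, the desmocollin of differentiating layers, had TPM of 5.04 and 2.96 at D0, 10.9 and 13.5 at W1, 28.3 and 35.7 at W2, 52.9 and 26.0 at W6, and 24.6 and 18.6 at W12. It was higher than at D0 at all 4 later timepoints, by 1.42, 2.74, 2.96 and 2.20 on the log2 scale (limma adjusted P = 0.034, 0.00146, 0.000575 and 0.00145). The W1 call of Dsc1 was lost without D0 replicate 2 and without any 1 of the W1, W2 and W12 libraries. Its highest TPM was thus at W2 and W6 and that of Dsc2 at W12. Cdsn, corneodesmosin, a protein of the desmosomes of the outermost layers, went from 1.72 and 2.95 TPM at D0 to 13.9 and 17.1 TPM at W12 (2.32, limma adjusted P = 0.028), with 31.0 and 3.54 TPM in the W6 libraries. The plakins envoplakin (Evpl) and periplakin (Ppl), which sit at desmosomes and in the cornified envelope, went down. Evpl went from 43.6 and 73.2 to 14.4 and 16.3 TPM (−1.82, limma adjusted P = 0.00216), and Ppl from 60.8 and 106 to 17.4 and 14.4 TPM (−2.27, limma adjusted P = 0.00066).

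Genes of other junctions were counted for comparison at W12 against D0, where 25.1% of all genes tested were lower, 17.9% higher and their median was −0.08. Of 6 hemidesmosome genes 4 were lower and 0 higher, and the median change was −1.52. Of 8 adherens junction genes 4 were lower and 0 higher (median −0.49). Cdh1, E-cadherin, went from 274 and 365 TPM at D0 through 514 and 440.3 TPM at W1 to 77.3 and 89.1 TPM at W12. Of 6 tight junction genes 3 were lower and 1 higher (median −0.74). Without D0 replicate 1 the tight junction genes lower were 5, against 24.9% of all genes. The desmosome members' median was −0.37, and no test compared the lists.

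Over the 10 libraries, Jup and Pkp3 were the most alike members (Pearson's r = 0.955 on log2(TPM + 1)), followed by Pkp1 and Pkp3 (0.946), while Dsc2 and Dsg2 ran opposite (−0.913). These values describe 10 libraries that share timepoints. The tested gene most like Jup was Plxnb2 (0.997), the gene most like Pkp1 was Armc5 (0.9901), and that most like Pkp3 was Tsc2 (0.985). Dsp was closest to Trim28 (0.987), Dsg2 to Ptpn14 (0.981), Dsc2 to Tes (0.974), Dsc3 to Gcnt2 (0.962), Dsg3 to Mtmr6 (0.922) and Perp to Nudt12 (0.867). Itga6, the integrin whose protein CD49f was a sort gate, came second for Dsc3 (0.945).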

How the data were processed

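RNA-seq libraries were made from sorted EpdSCs with a SMARTer low-input kit, 2 biological replicates per timepoint. TPM per gene were deposited by the authors for the time course: reads were trimmed with Skewer, quantified with Salmon (1.4.0) against a GENCODE index of GRCm38 to which the transgene was added, and summed to genes with Tximport (1.12.3). TPM carry no read depth, so depth and counting precision are unknown. The study's methods name a NovaSeq SP for these libraries and the labels a NextSeq or NovaSeq SP, and which library ran on which is not given. The deposited placode table holds only the authors' comparison and was not used.

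All 10 time-course libraries were fitted with limma 3.58.1 (R 4.3.3) on log2(TPM + 1), as means of the 5 timepoints, with eBayes and a variance trend. Genes whose mean TPM reached 1 (13110) were tested in 7 contrasts, and P values were adjusted by Benjamini-Hochberg over all of them. Counts are not in the table, so the count test of the study's methods was not possible, and limma took its place. A log2 change on this scale understates that of genes with low TPM. Intervals are 95% intervals of the same fit. Library composition was checked with lists of basal and suprabasal keratinocyte, hair follicle stem cell, melanocyte, fibroblast, immune, endothelial and Merkel markers and of stress and cycling genes. The text names all members, the further desmosome genes listed, and the gene most like each member by Pearson's r. Shares are percentages of the summed deposited TPM of a family and were not tested. Alternatives were pseudocounts, filters on low TPM, scalings, eBayes without trend, 4-library fits, a replicate block, each library left out and, added after seeing the data, a length and GC correction and crossed blocks. The members and lists were chosen with earlier results of these data known. Figures were drawn in Python 3.11.15 with matplotlib 3.10.9.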

Additional observations from a re-analysis of the deposited data

How the results depend on the processing

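With 2 libraries per timepoint, P values rest on a spread shared over all timepoints, and no level carries a counting error. Over 1224 values of 9 members in 7 comparisons under the alternatives, 1097 kept their direction and their side of the threshold, 66 lost the threshold, 21 gained it and 40 changed sign. None of the 40 belonged to the 15 changes called. Dsg2 and Dsc2 at W12 against D0 (19 alternatives each) and Dsc2 at W6 against D0 and at W12 against W6 (20 each) passed in every alternative. Dsp at W12 against D0 gained a call in 5 alternatives, among them quantile normalization (−0.43, limma adjusted P = 0.0246).

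The count of members called was 2 at W1 against D0. It was 1 with eBayes without trend, 1 with median-ratio scaling, 1 with quantile normalization (1229, 1272 and 1228 of all genes called, against 1296), 1 with the replicate block (1057), 0 with no filter on low TPM and 0 with the 4 libraries of the comparison alone. With those 4 libraries alone it was 1 at W6 against D0, 1 at W6 against W2 and 1 at W12 against W6. At W6 against W2 it was 0 with no filter and 1 with the replicate block. At W12 against W6 it was 1 with the length and GC correction (2548 of all genes called, against 2642). With 1 library left out in turn, the count ranged from 0 to 3 at W1, from 0 to 1 at W2 and from 2 to 6 at W12 against D0, from 0 to 3 at W6 against W2 and from 1 to 4 at W12 against W6, while the share of all genes called ran from 2.88% to 13.5%, 4.97% to 20.2%, 25.6% to 48%, 1.58% to 24.2% and 5.8% to 24.6%. The 3 at W1 (Dsg2, Dsc2 and Dsp) came without either W6 library, with 12.9% of all genes, and the 6 at W12 added Dsp, without D0 replicate 1 or either W6 library. A lone remaining library was assumed to vary like the other timepoints. Over all genes, calls in W1 against D0 were 606 with no filter and 411 with its 4 libraries alone, against 1296. The 4-library counts were 1086 against 2058 at W2, 1094 against 4251 at W6, 80 against 15 for W2 against W1, 966 against 2137 for W6 against W2 and 887 against 2642 for W12 against W6. With no filter, W2 and W6 against W2 gave 1011 and 940. With the length and GC correction W2 against W1 gave 31. The cause was not tested.

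Changes of sign were as follows. Under median-ratio scaling, Pkp1 was −0.020 and Perp −0.075 at W1, and Perp −0.019 at W2 and 0.083 at W12, all against D0. Under quantile normalization, Perp was 0.27 at W6 and 0.16 at W12 against D0, 0.082 at W6 against W2 and −0.11 at W12 against W6. Under the length and GC correction, Dsg3 was 0.018 at W1, Dsc3 0.011 at W2 and Dsp 0.30 at W12 against D0, Dsp 0.37 at W6 against W2, Perp −0.026 at W2 against W1 and −0.11 at W12 against W6. With 1 library left out in turn, W1 against D0 ranged from −0.23 to 0.39 for Pkp1, −0.18 to 0.24 for Perp, −0.28 to 0.21 for Dsg3 and −0.32 to 0.0057 for Dsc3. W2 against D0 ranged from −0.17 to 0.42 for Jup, −0.10 to 0.52 for Pkp1, −0.17 to 0.25 for Perp, −0.34 to 0.15 for Dsg3 and −0.28 to 0.048 for Dsc3. W6 against D0 ranged from −0.44 to 0.052 for Dsg3, −0.62 to 0.13 for Jup and −0.37 to 0.049 for Perp. W12 against D0 ranged from −0.078 to 0.42 for Dsg3 and −0.23 to 0.20 for Perp. W2 against W1 ranged from −0.17 to 0.045 for Dsg3, −0.051 to 0.077 for Perp, −0.067 to 0.15 for Dsc3 and −0.28 to 0.019 for Pkp3. W6 against W2 ranged from −0.21 to 0.0064 for Dsg3, and W12 against W6 from −0.60 to 0.046 for Dsg2.

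Replicate numbers did not pair the libraries. The correlation of same-numbered deviations over genes was −0.11 for W1 with D0, −0.07 for W2 with D0, −0.13 for W6 with D0, 0.09 for W12 with D0, 0.18 for W2 with W1, −0.05 for W6 with W2 and −0.11 for W12 with W6. With the replicate block, all genes called numbered 1057, 1709, 3761 and 5259 at W1, W2, W6 and W12 against D0, 6 for W2 against W1, 1396 for W6 against W2 and 2163 for W12 against W6. The members called with the block were 1, 0, 3 and 5 against D0. With D0 numbers crossed, chosen after seeing the data, all genes called were 1225 at W1 and 4291 at W6 and members called 2 (Dsg2 and Dsc2, without Dsp) and 3, and with W6 numbers crossed W12 against W6 gave 2666 genes and 3 members.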
